A study of Mus musculus with 12 samples.

Results

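Socs1, Socs2, Socs3, Cish, Pim1, Pim2, Osm, Ccnd2 and Ccnd3, a set of feedback and growth genes known to respond to interleukin-2 (IL-2), were followed by gene symbol through 12 RNA libraries of sorted mouse regulatory T cells (Tregs). All 9 members were among the 24421 gene rows, and all 9 were among the 12461 genes tested. They were chosen as readouts of IL-2 signalling with earlier results of these data known. When IL-2 binds its receptor, the receptor's JAK kinases activate the transcription factor STAT5, which enters the nucleus and switches on target genes. Some of these encode SOCS-family proteins, which turn the receptor signal off again, and others encode PIM kinases and D-type cyclins, which promote survival, growth and entry into the cell cycle. Tregs make little IL-2 themselves and depend on IL-2 from other T cells through CD25, the alpha chain that gives the receptor its high affinity.

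The groups were knockout (KO) and wild-type (WT) central Tregs (cTreg) and KO and WT effector Tregs (eTreg), with 3 libraries each. A library held sorted cells of 2 to 3 mice, whose spleens and lymph nodes had been combined. Tamoxifen was injected into the peritoneum of all mice at 2 mg/kg over 5 days, and organs were collected after 10 days. All carried the alleles labelled R26tomato+/+ and Foxp3eGFPERT2+/+, so that deletion was aimed at cells expressing Foxp3, and Tregs were sorted by viability, CD4, GFP and tdTomato. The cTreg and eTreg gates were set by a surface marker, high in cTreg and low in eTreg, and KO Tregs were in addition gated as CD25lo. The CD25 allele is given as CD25WT/WT for the libraries titled KO and as CD25FL/FL for those titled WT. That is the reverse of the titles and of the cell type field, which the groups follow here. In bulk RNA, fewer cells of a type and less RNA per cell cannot be told apart.

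Il2ra, which encodes CD25, stood at 116 ± 5.79 CPM in KO cTreg and 559.7 ± 31.8 CPM in WT cTreg, and at 124 ± 7.88 CPM in KO eTreg and 523 ± 51.4 CPM in WT eTreg (SD, n = 3 each). CPM values are counts divided by the TMM-adjusted total of the library. About 20.6% of the WT level remained in KO cTreg and 23.7% in KO eTreg, and these cells were also gated on low CD25. Total counts ran from 14567313 to 19121577 per library. The Treg markers Cd3e, Cd4, Foxp3, Ikzf2, Ctla4 and Il2ra were detected in every group, summing to 2694 to 4262 CPM per library. That sum hides differences between its genes. Foxp3 averaged 227 CPM in KO cTreg and 392.5 CPM in WT cTreg, and 176 CPM in KO eTreg and 244 CPM in WT eTreg. Ikzf2 was higher in KO, at 776 against 588 CPM in cTreg and 2180 against 1875 CPM in eTreg. Cd4 was higher too, at 784 against 565 CPM in cTreg and 710 against 621 CPM in eTreg. The effector gate markers Klrg1, Gzmb, Cxcr3 and Itgae summed to 175 to 234 CPM in KO cTreg and 49.0 to 61.6 CPM in WT cTreg, and to 281 to 373 CPM in KO eTreg and 311 to 398 CPM in WT eTreg. Their part in the cTreg results was not tested.

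The comparison of KO with WT asks how the STAT5 targets differ where CD25 is lost. KO Tregs were also gated as CD25lo, so the deletion and this gate cannot be told apart in any KO difference. In cTreg, 6 of the 9 members fell and 1 rose, and in eTreg 4 fell and 1 rose. Cish and Socs2 fell the furthest in both subsets, Ccnd2 and Socs1 fell in both, and Pim2 rose in both. Osm and Ccnd3 fell in cTreg, while Socs3 and Pim1 passed the test in neither subset. Calls rest on edgeR's two-sided quasi-likelihood test with Benjamini-Hochberg adjustment over all genes tested, at a threshold of 0.05. Nothing beyond the pooling of mice is stated about how the replicates of a group relate, so p-values measure the spread between these libraries. By that rule 27.5% of all genes were called in cTreg, 14.8% higher and 12.6% lower, and 6.65% in eTreg, 3.25% higher and 3.4% lower. The members' median log2 fold change was -0.53 in cTreg, against 0.0014 over all genes, and -0.21 in eTreg, against 0.007.

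**Figure D1:**
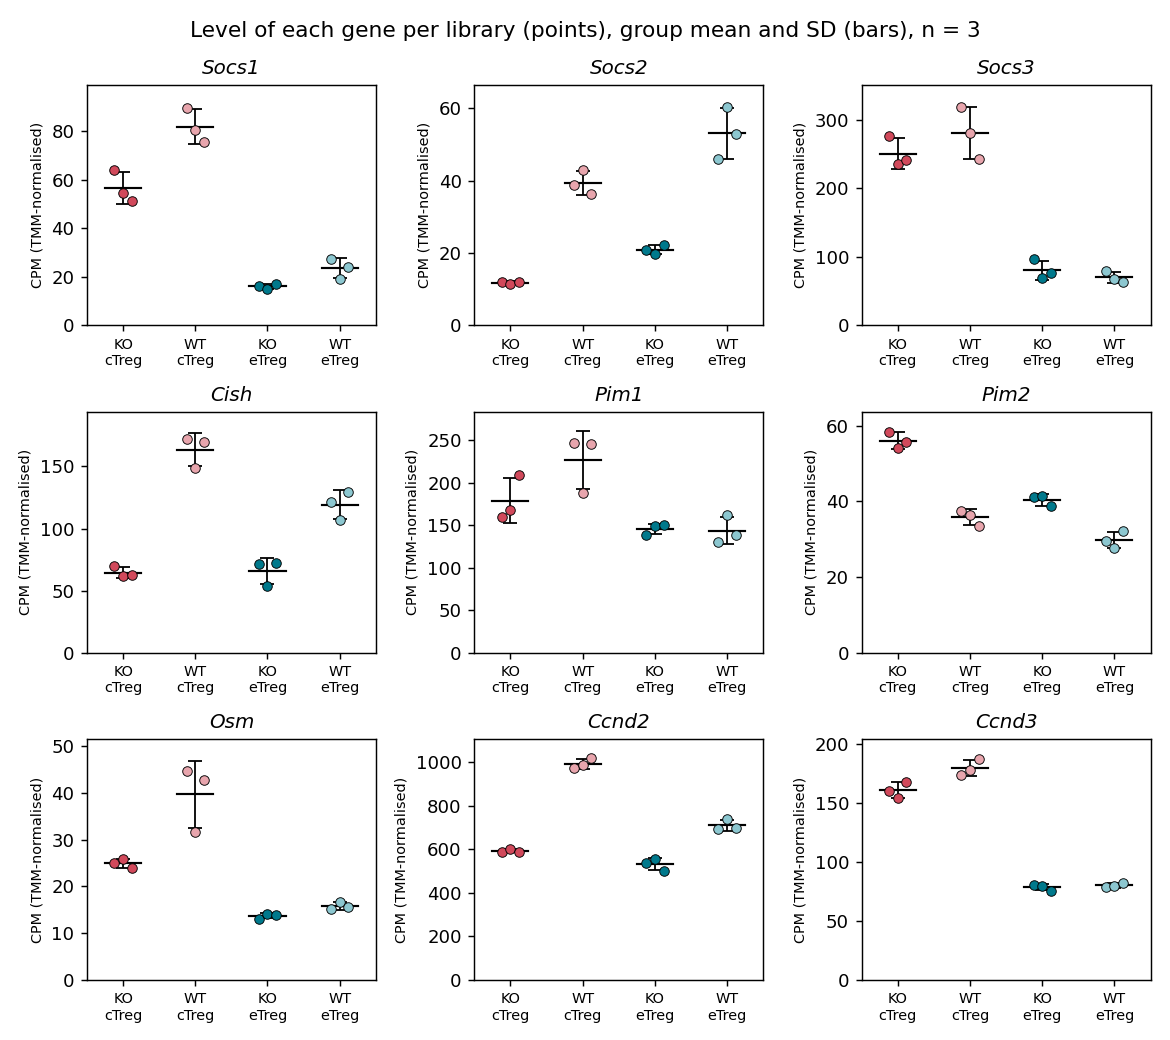
Level of each of the 9 genes in CPM (linear axes from 0, one scale per gene) in every library, by group. Points are libraries, horizontal lines are group means and vertical bars are SD (n = 3). Socs2 lies between 11.5 and 12.1 CPM in KO cTreg and between 36.3 and 42.9 CPM in WT cTreg, and Pim2 is the gene whose KO libraries lie above the WT libraries in both subsets.

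**Figure D2:**
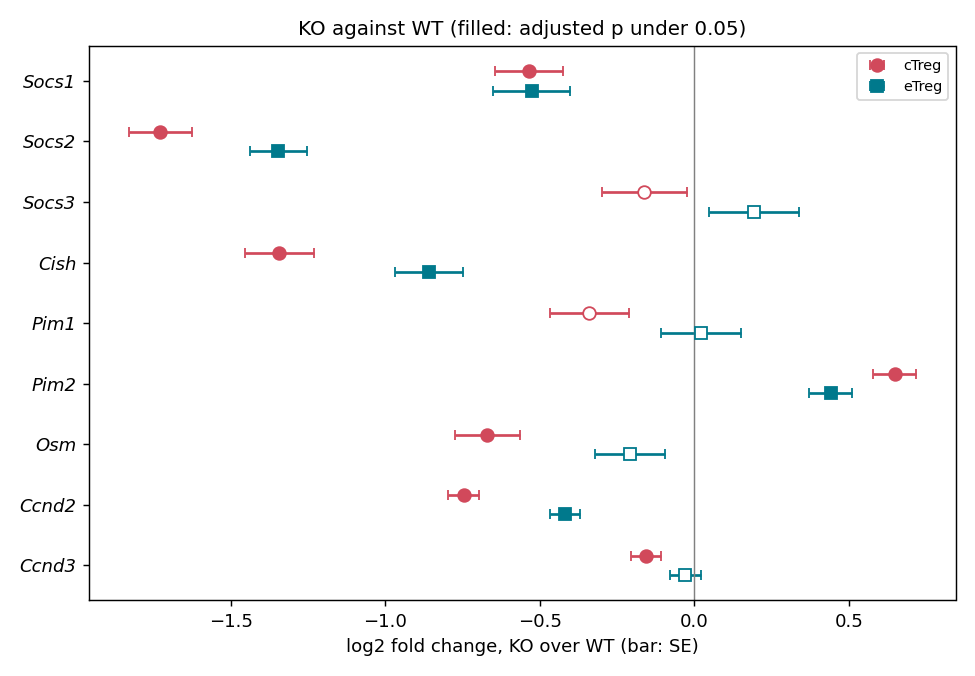
Log2 fold change of KO over WT for each gene in cTreg (circles) and eTreg (squares), with SE bars. Filled symbols passed an adjusted p of 0.05, and open ones did not. The values run from -1.73 for Socs2 to 0.65 for Pim2 in cTreg, and from -1.35 to 0.44 for the same genes in eTreg.

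Cish encodes CIS, an SH2 protein that is among the first genes switched on by STAT5 and dampens IL-2 receptor signalling (chromosome 9, 107296026 to 107302784, plus strand, mm10). Its level was 69.6, 61.8 and 62.2 CPM in KO cTreg replicates 1, 2 and 3 and 173, 148 and 170 CPM in the WT cTreg replicates. In eTreg it was 71.1, 54.0 and 72.3 CPM in KO and 121, 107 and 130 CPM in WT. All KO libraries lay below all WT libraries in each subset. The log2 fold change was -1.34 ± 0.11 in cTreg and -0.86 ± 0.11 in eTreg (SE, n = 3 per group), with edgeR adjusted p-values of 4.47e-06 and 7.96e-04. The KO cTreg and KO eTreg levels, 64.5 ± 4.40 and 65.8 ± 10.2 CPM (SD), differed by less than their spread (edgeR adjusted p = 0.833), whereas the WT subsets differed by a log2 of -0.46 ± 0.11, eTreg over cTreg (adjusted p = 0.00219). An antisense and a pseudogene model overlap Cish on the other strand, and an antisense model overlaps Pim1, none of them a row here. Without a stated strand setting such reads cannot be told apart from the gene's own.

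STAT5 binds the palindrome TTCNNNGAA, and promoter windows of 250 bases before to 50 after the RefSeq transcript start (build GRCm38.p6) were searched for it. Windows were at hand for 6 of the 9 members (8 windows); Socs2, Osm and Ccnd2 were not in the table. The motif reads the same on both strands. Over all 32851 windows, 8.3% held at least 1 match and 0.457% held 2 or more. Among the members, Cish held 2 and Socs3 held 1. Their sites are shown because Cish fell in both subsets and Socs3 passed the test in neither, with the motif in capitals. The Cish stretch, chr9:107296654-107296683, plus strand, runs from 5 bases before to base 25 after the start, and its matches span bases 1 to 9 and 12 to 20. The Socs3 stretch, chr11:117969502-117969531, minus strand, lies at -165 to -136 from the start, with the match at -154 to -146. Both stretches lie inside the gene spans given in the text, which are from another annotation (GENCODE). Their positions therefore hold for the RefSeq starts and not for the ends of those spans.
Cish: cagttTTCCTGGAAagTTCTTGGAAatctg
Socs3: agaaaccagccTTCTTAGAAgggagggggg
No match was found in the windows of Socs1, Pim1, Pim2 and Ccnd3. With 4 bases in place of 3 between the half-sites no member had a match, and 6.95% of all windows did. The 250 bases before the Socs1 start, chr16:10785537-10785786, minus strand, are shown as those of a member that fell in both subsets without a match in its window.
Socs1: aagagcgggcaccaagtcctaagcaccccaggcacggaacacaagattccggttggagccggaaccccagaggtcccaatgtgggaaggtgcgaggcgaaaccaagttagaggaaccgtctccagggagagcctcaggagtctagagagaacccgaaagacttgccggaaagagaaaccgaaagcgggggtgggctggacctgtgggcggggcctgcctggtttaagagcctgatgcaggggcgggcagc
A match describes the letters of a window, and sites outside the windows were not searched.

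Socs2, best known as the inhibitor of growth hormone receptor signalling and a STAT5 target (chromosome 10, 95385362 to 95417180, minus strand), had the largest fall of the members. It stood at 11.9, 11.5 and 12.1 CPM in KO cTreg and 38.7, 42.9 and 36.3 CPM in WT cTreg. In eTreg it stood at 20.7, 19.7 and 22.2 CPM in KO and 46.1, 60.2 and 52.8 CPM in WT. The KO libraries were lower in every case, and the 3 KO cTreg libraries had an SD of 0.313 CPM. The log2 fold change was -1.73 ± 0.10 in cTreg and -1.35 ± 0.09 in eTreg (SE), so that 30.2% and 39.3% of the WT level remained. By p-value Socs2 ranked 9 of 12461 genes in cTreg and 5 in eTreg (edgeR adjusted p = 9.48e-09 and 1.67e-07).

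Socs1, an inhibitor of JAK kinases that restrains interferon-gamma and IL-2 family signalling (chromosome 16, 10782240 to 10785536, minus strand), fell less. Its values were 64.0, 54.6 and 51.4 CPM in KO cTreg and 89.8, 80.5 and 75.8 CPM in WT cTreg. They were 16.3, 15.2 and 17.2 CPM in KO eTreg and 27.4, 19.2 and 23.99 CPM in WT eTreg. The groups did not overlap in either subset, which was the case for 40.4% of all genes in cTreg and 25.2% in eTreg. The log2 fold changes were close, -0.53 ± 0.11 in cTreg and -0.53 ± 0.13 in eTreg, with edgeR adjusted p-values of 0.00242 and 0.0220. The eTreg call ended without any 1 of 5 eTreg libraries (each KO replicate and WT replicates 1 and 3), with adjusted p-values of 0.0520 to 0.0913.

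Socs3, which binds gp130 and limits STAT3 signalling from the IL-6 family (chromosome 11, 117966079 to 117970047, minus strand), did not pass in either subset. It stood at 277, 235 and 241 CPM in KO cTreg and 319, 281 and 243 CPM in WT cTreg. In eTreg it stood at 96.4, 68.7 and 76.3 CPM in KO and 79.7, 67.5 and 64.0 CPM in WT. The groups overlapped in both subsets, and the log2 fold changes had opposite signs, -0.16 ± 0.14 in cTreg and 0.19 ± 0.15 in eTreg (edgeR adjusted p = 0.438 and 0.542). Socs3 was the most abundant SOCS member per length. It averaged 86.9 CPM per kilobase of exon in KO cTreg and 97.2 in WT cTreg, against 19.5 and 28.2 for Socs1, 10.1 and 25.5 for Cish and 1.25 and 4.12 for Socs2. Lengths are unions of all annotated exons, 6.42 kb for Cish and 9.53 kb for Socs2, and not of the transcripts expressed here.

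Pim1 and Pim2 encode serine/threonine kinases with no known need for an activating signal, so that their activity follows their amount; they act on survival and protein synthesis. Pim2 (chromosome X, 7878262 to 7883432) was the member that rose. It stood at 58.5, 54.3 and 55.6 CPM in KO cTreg and 37.5, 36.4 and 33.4 CPM in WT cTreg. Levels in eTreg were 41.1, 41.4 and 38.7 CPM in KO and 29.4, 27.8 and 32.1 CPM in WT. Every KO library lay above every WT library of its subset. KO over WT gave a log2 fold change of 0.65 ± 0.07 in cTreg and 0.44 ± 0.07 in eTreg (edgeR adjusted p = 3.95e-06 and 9.44e-04), a 1.57-fold and a 1.36-fold rise.

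Pim1 (chromosome 17, 29490753 to 29496112) stood at 160, 168 and 209 CPM in KO cTreg and 247, 187 and 246 CPM in WT cTreg. In eTreg it stood at 139, 149 and 150 CPM in KO and 131, 161 and 139 CPM in WT. KO cTreg replicate 3 and WT cTreg replicate 2 overlapped, and so did the eTreg groups. The log2 fold change was -0.34 ± 0.13 in cTreg and 0.02 ± 0.13 in eTreg (edgeR adjusted p = 0.0764 and 0.953). Pim1 passed in cTreg without WT cTreg replicate 2 (-0.46, adjusted p = 0.00970) or without KO cTreg replicate 3 (-0.47, adjusted p = 0.0159), and in the DESeq2 Wald test (adjusted p = 0.0120) and limma-voom (0.0396). Per kilobase, the ratio of Pim2 to Pim1 was 0.383 ± 0.0598 in KO cTreg and 0.194 ± 0.0361 in WT cTreg, and 0.334 ± 0.0226 in KO eTreg and 0.252 ± 0.0395 in WT eTreg (SD, n = 3).

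Osm encodes oncostatin M, a secreted cytokine of the IL-6 family made by activated T cells and myeloid cells, and a STAT5 target in blood cells (chromosome 11, 4236420 to 4241026). It stood at 24.97, 25.9 and 23.9 CPM in KO cTreg and 44.8, 31.6 and 42.9 CPM in WT cTreg. Its eTreg levels were 13.1, 14.2 and 13.9 CPM in KO and 15.1, 16.7 and 15.7 CPM in WT. The groups did not overlap in either subset, but the eTreg difference was small. On the log2 scale the change was -0.67 ± 0.11 in cTreg (edgeR adjusted p = 1.49e-04) and -0.21 ± 0.11 in eTreg (adjusted p = 0.341). The 7 myeloid markers Lyz2, Csf1r, Cd14, Itgam, S100a8, S100a9 and Fcer1g summed to 5.11 to 11.5 CPM in KO cTreg and 3.03 to 4.61 CPM in WT cTreg, and to 2.55 to 7.04 CPM in KO eTreg and 3.00 to 5.67 CPM in WT eTreg. Cd14, S100a8 and S100a9 were at 0 in KO cTreg and WT eTreg, and S100a8 was at 0 in KO eTreg. The part of such cells in the Osm level was not tested.

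Ccnd2 encodes cyclin D2, which with CDK4 or CDK6 opens the G1 phase of the cell cycle (chromosome 6, 127125162 to 127152193, minus strand). It stood at 587, 599.5 and 588 CPM in KO cTreg and 972, 988 and 1016 CPM in WT cTreg. The eTreg libraries had 537, 556 and 500.1 CPM in KO and 692, 739 and 698 CPM in WT. Replicates were tight and the KO libraries were lower throughout. This was a log2 fold change of -0.75 ± 0.05 in cTreg and -0.42 ± 0.05 in eTreg (edgeR adjusted p = 3.29e-08 and 1.06e-04), so that 59.6% and 74.8% of the WT level remained. Antisense models overlap Ccnd2 on the other strand. Gm43126 has no row here, so its reads cannot be told apart from those of Ccnd2, and 9330179D12Rik stood at 0.760 ± 0.118 CPM in KO cTreg and 0.660 ± 0.106 CPM in WT cTreg.

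Ccnd3, the gene of cyclin D3, the D-type cyclin of developing and dividing lymphocytes (chromosome 17, 47505051 to 47599691), changed little. It stood at 160, 154 and 168 CPM in KO cTreg and 173, 178 and 187 CPM in WT cTreg. In eTreg it stood at 80.1, 79.2 and 75.5 CPM in KO and 78.2, 79.5 and 82.0 CPM in WT. The cTreg groups did not overlap and the eTreg groups did. The log2 fold change was -0.16 ± 0.05 in cTreg (edgeR adjusted p = 0.0242) and -0.03 ± 0.05 in eTreg (adjusted p = 0.829). The cTreg call ended without WT cTreg replicate 3 or KO cTreg replicate 1 or 2 (adjusted p of 0.0532 to 0.113) and with only the 6 cTreg libraries (0.0554). Bysl, a gene of ribosome assembly, overlaps Ccnd3 by 361 bases on the other strand and fell in KO cTreg as well (-0.38 ± 0.10, adjusted p = 0.00782). In KO eTreg, where Ccnd3 was not called, Bysl fell too (-0.39 ± 0.11, edgeR adjusted p = 0.0360). Its part in the Ccnd3 count was not tested. Per kilobase, the ratio of Ccnd3 to Ccnd2 was 0.291 ± 0.0151 in KO cTreg and 0.194 ± 0.00307 in WT cTreg, and 0.158 ± 0.00479 in KO eTreg and 0.121 ± 0.00537 in WT eTreg (SD, n = 3).

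Whether the KO effect differed between the subsets was tested as an interaction, the KO effect in eTreg minus that in cTreg, with 3.8% of all genes called and 0.803% called with a positive difference. That split was 100 positive and 374 negative, and 280 and 341 with the length and GC offset. Of the 9 members, 1 was called. Ccnd2 fell less in eTreg than in cTreg, by 0.33 ± 0.07 on the log2 scale (edgeR adjusted p = 0.0116). The differences for Cish (0.48 ± 0.16), Osm (0.46 ± 0.15) and Socs2 (0.38 ± 0.14) were as large or larger but less precise, with edgeR adjusted p-values of 0.125, 0.117 and 0.151. Each of them passed when 1 library was left out. Cish passed without KO eTreg replicate 2 (adjusted p = 0.00425), Osm without WT cTreg replicate 2 (0.00462) and Socs2 without WT eTreg replicate 2 (0.0495). Socs1 had nearly the same effect in both subsets, with a difference of 0.01 ± 0.17 (adjusted p = 0.987).

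The comparison of eTreg with cTreg asks how the same genes differ between the gates, and most genes were called here, so that a member's call says little by itself. In KO, 72% of all genes were called, 36.1% higher and 35.8% lower in eTreg, and in WT 71.5%, 35.7% higher and 35.8% lower. Of the 9 members, 6 were lower in eTreg than in cTreg in KO, Socs2 was higher, and Cish and Pim1 did not pass. In WT 8 were lower and Socs2 was again higher. The groups did not overlap for 8 members in KO and 9 in WT, against 74.6% and 74.9% of all genes. Socs1, Socs3, Osm and Ccnd3 had the largest subset differences, with log2 fold changes of -1.80 ± 0.12, -1.64 ± 0.14, -0.86 ± 0.11 and -1.04 ± 0.05 in KO and -1.81 ± 0.12, -1.998 ± 0.15, -1.33 ± 0.11 and -1.17 ± 0.05 in WT (edgeR adjusted p of at most 2.46e-06). Socs2 was higher by 0.82 ± 0.10 in KO and 0.44 ± 0.09 in WT (edgeR adjusted p = 2.37e-06 and 3.49e-04).

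The smaller subset differences depended on how exon length and GC content were treated. The share of counts held by the ribosomal RNA gene Rn45s also differed between the gates, at 3.19% to 4.34% in eTreg and 18.1% to 24.4% in cTreg. With an offset fitted on length and GC, the WT difference fell to 0.04 for Socs2 (edgeR adjusted p = 0.714), to -0.01 for Pim2 (0.918) and to -0.31 for Pim1 (0.0638), and that of Pim2 in KO to -0.14 (0.0886). Socs1, Socs3, Osm and Ccnd3 kept their calls with the offset in both genotypes, at -1.17, -1.02, -0.52 and -0.58 in KO and -1.27, -1.47, -1.08 and -0.77 in WT. The offset also brought Socs2 in KO to 0.44 and Cish in WT to -0.30, both still called. Ccnd2 moved the other way, to -0.41 in KO and -0.76 in WT, against -0.16 and -0.48 without the offset. Pim1 in KO, not called either way, stood at 0.12 with the offset and -0.29 without it. The KO effects moved less, and no member's call for KO against WT changed with the offset. Over all genes the offset gave 1530 higher and 2181 lower in KO cTreg, against 1847 and 1574 without it. For eTreg against cTreg in WT it gave 2726 higher and 5094 lower, against 4449 and 4465. Scaling KO against WT in eTreg by library size without Rn45s gave 301 higher and 545 lower, against 405 and 424.

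**Figure D3:**
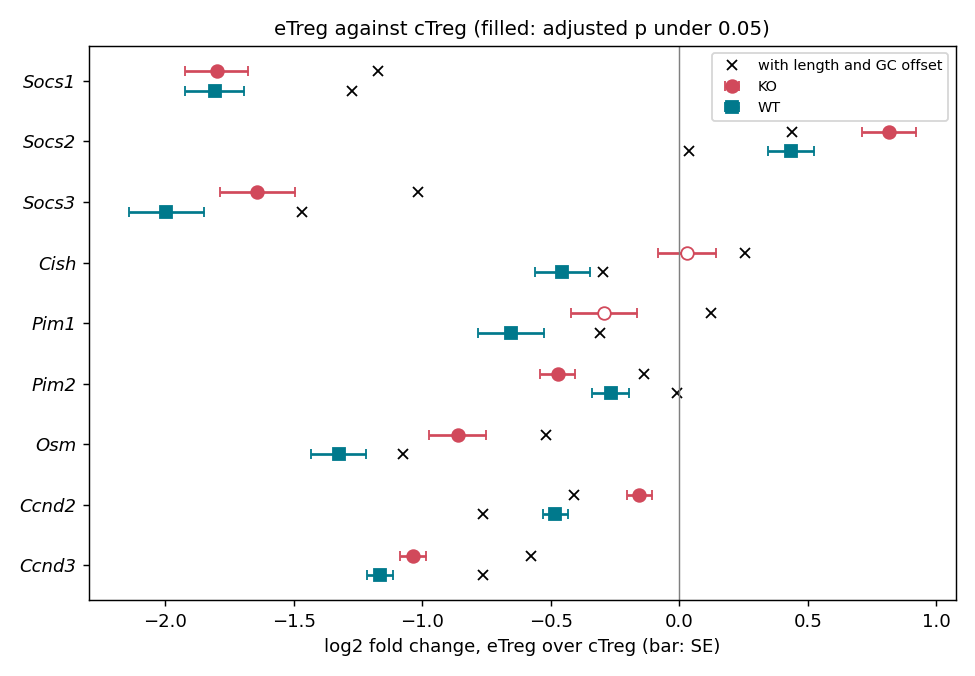
Log2 fold change of eTreg over cTreg for each gene in KO (circles) and WT (squares), with SE bars. Filled symbols passed an adjusted p of 0.05, open ones did not, and crosses give the value with the length and GC offset. Socs2 lies right of 0 (0.82 in KO and 0.44 in WT), and its WT value with the offset is 0.04.

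Ordered by level, the members showed different patterns over the 4 groups. Where neighbours differed in both genotype and gate, the direct test was used. It called 70.2% of all genes for KO cTreg against WT eTreg, 35.2% higher and 35.1% lower, and 74.5% for KO eTreg against WT cTreg, 37.2% higher and 37.3% lower. Socs1 was highest in WT cTreg, then KO cTreg, WT eTreg and KO eTreg, and each neighbour pair differed by edgeR's test. Ccnd3 and Osm had the same order, but for both the KO and WT eTreg levels did not pass edgeR's test (adjusted p = 0.829 and 0.341). The eTreg groups overlapped for Ccnd3 and did not for Osm. Socs3 split by gate alone, with both cTreg groups above both eTreg groups. Socs2 split by genotype first, in the order WT eTreg, WT cTreg, KO eTreg and KO cTreg, and all neighbours differed. With the length and GC offset the step between its WT groups did not pass (0.04, edgeR adjusted p = 0.714). Cish and Ccnd2 were both highest in WT cTreg and then WT eTreg, with the KO groups below. In Ccnd2 the KO cTreg level, 592 ± 6.97 CPM, lay below that of WT eTreg, 709.6 ± 25.9 CPM (log2 fold change -0.26 ± 0.05, adjusted p = 1.54e-04). Pim2 ran the other way, with KO cTreg highest, then KO eTreg, WT cTreg and WT eTreg, and the KO eTreg and WT cTreg levels were close (log2 fold change 0.18 ± 0.07, adjusted p = 0.0324). Neither step of Pim2 between the gates passed with the offset, at -0.14 in KO (edgeR adjusted p = 0.0886) and -0.01 in WT (0.918). For Pim1 no neighbours in the order differed, but groups further apart did. Its WT eTreg level lay below WT cTreg (-0.66 ± 0.13, edgeR adjusted p = 8.65e-04), a call that ended with the offset (-0.31, 0.0638). KO eTreg lay below WT cTreg (-0.63 ± 0.13, adjusted p = 0.00102). KO cTreg lay above WT eTreg (0.32 ± 0.13, adjusted p = 0.0475), though these libraries overlapped.

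For each member, the 3 most similar of 8432 other genes were found by Pearson's r of log2 CPM over the 12 libraries. These libraries form 4 groups and share their scaling, so r mainly follows the group means and is given as a description. Nearest to Socs2 were Fsd1l (r = 0.985), Sh3bgrl2 (0.967) and Dennd5a (0.958), whose log2 fold changes in KO cTreg were -2.94, -1.35 and -0.43. Nearest to Cish were Ppp1r3fos (0.968), Ift80 (0.963) and the coronin gene Coro2a (0.963), at -0.995, -0.64 and -1.49. Nearest to Ccnd2 were the proton pump gene Atp6v0a1 (0.984), Ahcyl2 (0.977) and Apol9b (0.973), at -1.36, -0.73 and -1.78. Nearest to Pim2 were Hpcal1 (0.963), Susd3 (0.955) and Ppp1r16b (0.951), at 0.54, 0.40 and 0.18. For Socs1 they were Tesk1, the metabolic kinase gene Pdk1 and Klhl17 (0.988 to 0.99), for Socs3 Ppp6r1, Hsdl1 and Ddr1 (0.991 each), and for Osm Pdcd2l, the elongation factor gene Eef1g and Trpc4ap (0.989 to 0.993). For Pim1 they were Hivep1, the histone demethylase gene Kdm3b and the amino acid transporter gene Slc38a2 (0.959 to 0.973), and for Ccnd3 Ccdc64, Ttyh3 and Ccdc88b (0.996 to 0.997).

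The closest relatives of the members were not called. Of the 6 other SOCS, PIM and D-type cyclin genes, Socs4, Socs5, Socs6, Socs7 and Pim3 were tested and none was called in either subset by edgeR, DESeq2 or limma-voom. At an unadjusted p under 0.05, edgeR had 2 of the 5 in cTreg and 1 in eTreg, DESeq2 0 and 1, and limma-voom 1 and 1. Socs5 was the nearest to a rise, at 0.20 ± 0.09 in cTreg and 0.24 ± 0.08 in eTreg (edgeR adjusted p = 0.107 and 0.0839). Pim3 stood at 16.9 ± 2.60 CPM in KO cTreg and 20.6 ± 2.10 CPM in WT cTreg. Ccnd1, the D-type cyclin of many other tissues, was below the test's filter, with at most 0.692 CPM in any library.

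Other genes known to be induced by STAT5 moved in both directions. Of 20 such genes, KO cTreg had 9 lower and 6 higher, and KO eTreg had 10 lower and 3 higher, with medians of -0.19 and -0.18. The shares over all genes were 12.6% lower and 14.8% higher in cTreg, and 3.4% lower and 3.25% higher in eTreg. Besides Il2ra, the largest falls the naming rule took were Ecm1, an extracellular matrix protein gene, in cTreg (-1.60 ± 0.09) and Lta, the gene of lymphotoxin alpha, in eTreg (-1.51 ± 0.09), with edgeR adjusted p-values of 1.43e-08 and 4.81e-08. Ecm1 stood at 42.7, 41.8 and 40.8 CPM in KO cTreg and 122, 117 and 140 CPM in WT cTreg. Gzmb, the gene of the cytotoxic protease granzyme B, rose by 4.80 ± 0.63 in cTreg and 2.01 ± 0.39 in eTreg, and Prdm1, which encodes the effector factor Blimp-1, by 1.85 ± 0.13 and 0.65 ± 0.11. Prdm1 stood at 37.6, 42.0 and 43.7 CPM in KO cTreg and 12.9, 12.2 and 9.14 CPM in WT cTreg. Gzmb stood at 12.75, 21.5 and 25.65 CPM in KO cTreg and 0.802, 0.721 and 0.615 CPM in WT cTreg. These WT cTreg levels are 10, 10 and 8 counts, so the size of its cTreg rise rests on few counts. The eTreg call of Gzmb did not survive leaving out KO eTreg replicate 3 or either of WT eTreg replicates 1 and 3 (adjusted p up to 0.0746), or fitting only the 6 eTreg libraries (0.0844). Il2ra is the targeted gene, and Il2ra, Foxp3, Ctla4 and Gzmb of this list are also among the marker genes above.

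Of 11 JAK and STAT genes, 8 rose in KO cTreg and 5 in KO eTreg, among them Jak2, a kinase of cytokine receptors (0.57 ± 0.05 and 0.31 ± 0.05, edgeR adjusted p = 6.01e-07 and 8.92e-04). The median was 0.19 in both subsets. Of the STAT5 genes, both named after their values were seen, Stat5a had a log2 fold change of -0.10 ± 0.06 in cTreg and 0.04 ± 0.06 in eTreg (edgeR adjusted p = 0.248 and 0.821), and passed as lower in cTreg without WT cTreg replicate 2 (-0.18, 0.0369). Stat5b rose slightly in cTreg (0.16 ± 0.05, edgeR adjusted p = 0.0315) and stood at 0.10 ± 0.05 in eTreg (0.301). Its cTreg call ended without KO cTreg replicate 3 or WT cTreg replicate 2 (0.150 and 0.149), with only the 6 cTreg libraries (0.0797) and with the length and GC offset (0.09, 0.214). Of 9 receptor genes of the common gamma chain and gp130 families, 3 fell and 1 rose in cTreg and 2 fell in eTreg. Over all genes 12.6% fell and 14.8% rose in cTreg, and 3.4% fell and 3.25% rose in eTreg. Il2rb, the beta chain of the IL-2 receptor (-0.39 ± 0.05), and Il6ra, which binds IL-6 (-0.31 ± 0.08), fell in cTreg, and Il4ra (-0.38 ± 0.08) and Il6ra (-0.32 ± 0.08) in eTreg. Il9r rose in cTreg (1.26 ± 0.36, adjusted p = 0.0331), and lost its call without any 1 of 4 cTreg libraries (WT replicates 1 and 3, KO replicates 2 and 3; up to 0.110). Il6ra in eTreg did not pass once KO eTreg replicate 1, KO eTreg replicate 3 or WT eTreg replicate 2 was dropped (up to 0.107), and Il4ra once KO eTreg replicate 2 or WT eTreg replicate 3 was (up to 0.0620). Il4ra is also on the list of STAT5-induced genes.

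Of 11 other genes listed here as negative regulators of JAK-STAT signalling none was called lower, and 3 rose in KO cTreg and 2 in KO eTreg. Over all genes 14.8% rose in cTreg and 3.25% in eTreg. A place on this list does not show that a gene acts as a brake in these cells, Ptpn11 included. Ptpn11, the gene of the phosphatase SHP-2, rose in both (0.62 ± 0.06 and 0.35 ± 0.06), with edgeR adjusted p-values of 1.01e-06 and 0.00108. It stood at 194, 195 and 177 CPM in KO cTreg and 127, 122 and 120 CPM in WT cTreg. Pias3, an inhibitor of STAT3, rose in cTreg (0.30 ± 0.08), a call that ended without WT cTreg replicate 3 or KO cTreg replicate 2 (up to 0.0770), and Ptpn1, a phosphatase that acts on JAK kinases, rose in eTreg (0.24 ± 0.05). Of 8 genes of the oncostatin M family and its receptors, 3 were tested. Clcf1, a secreted cytokine of that family, fell in cTreg (-0.62 ± 0.08), and Il6st, the shared receptor chain gp130 and also one of the receptor genes above, fell slightly (-0.19 ± 0.06, lost without WT cTreg replicate 1 or KO cTreg replicate 2 or 3, adjusted p up to 0.0896). In eTreg none of the 3 was called by edgeR or limma-voom and 1 fell by DESeq2, with 1 at an unadjusted p under 0.05. Osmr, the oncostatin M receptor gene, was not tested, with at most 0.404 CPM in any library.

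**Figure D4:**
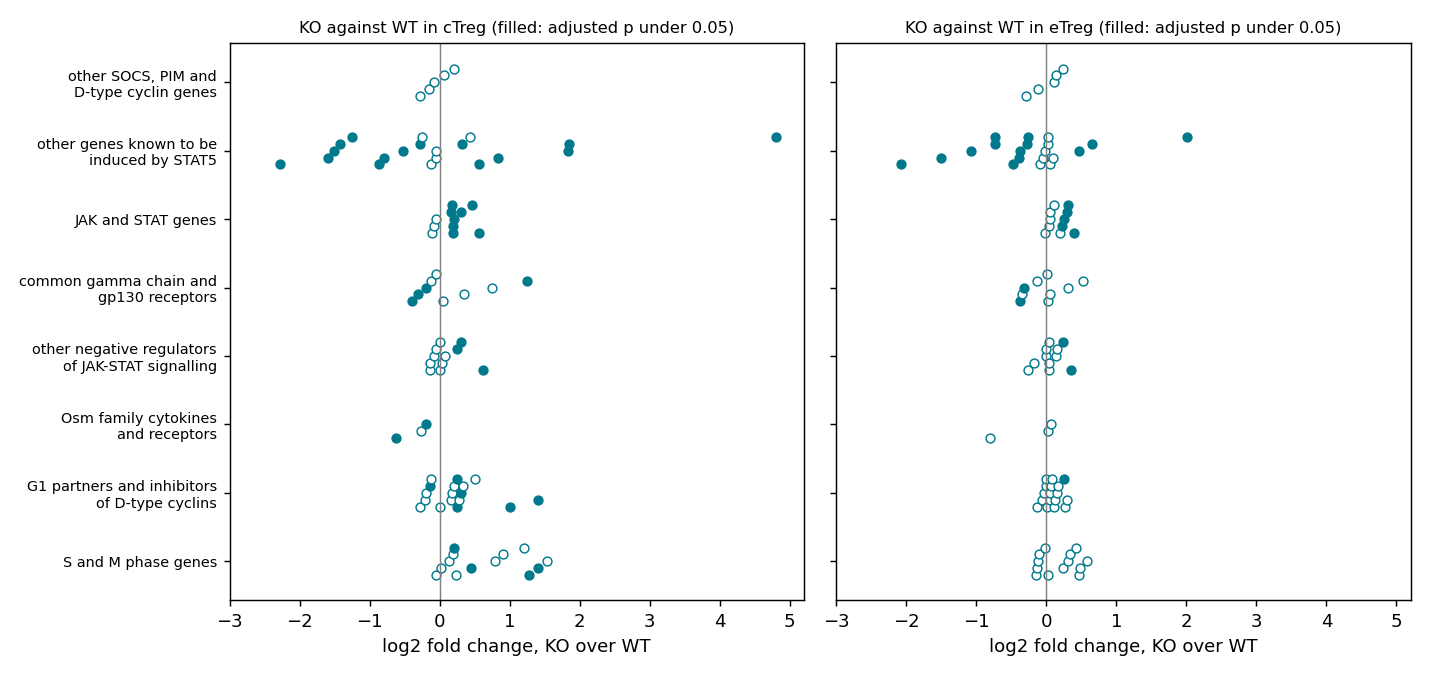
Log2 fold change of KO over WT in cTreg (left) and eTreg (right) for the tested genes of 8 lists related to the members. Each point is a gene, filled where its adjusted p was under 0.05, and the vertical spread within a list only parts the points. STAT5-induced genes lie on both sides of 0, and the JAK and STAT genes that passed lie right of 0 (8 of 11 in cTreg and 5 of 11 in eTreg).

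Of 19 genes that act with or against the D-type cyclins in G1, 17 were tested, and 5 rose and 1 fell in KO cTreg. Among all genes 14.8% rose and 12.6% fell in cTreg, and 3.25% rose and 3.4% fell in eTreg. Cdkn2c, which encodes the CDK4 and CDK6 inhibitor p18, rose (1.40 ± 0.26, edgeR adjusted p = 0.00193), at 14.7, 24.8 and 15.96 CPM in KO cTreg and 9.30, 7.14 and 4.69 CPM in WT cTreg. Ccne2, the gene of cyclin E2, rose (1.001 ± 0.29, adjusted p = 0.0179), and lost its call on leaving out KO cTreg replicate 2 or either of WT cTreg replicates 1 and 3 (up to 0.0791). The fall of Rb1, the retinoblastoma gene, was small (-0.13 ± 0.05, adjusted p = 0.0428) and its call ended without any 1 of 10 libraries, all but WT cTreg replicate 1 and WT eTreg replicate 2 (up to 0.180). In eTreg 1 of the 17 rose, Rbl1, a relative of Rb1 (0.25 ± 0.05, adjusted p = 0.00389).

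Of 13 S and M phase genes 4 rose in KO cTreg, and 6 did by DESeq2 and by limma-voom, with a median of 0.45. By edgeR 14.8% of all genes rose in cTreg. Ccnb1, the gene of cyclin B1 (1.41 ± 0.44, edgeR adjusted p = 0.0395), and the proliferation marker Mki67 (1.27 ± 0.38, adjusted p = 0.0387) were the largest rises that passed. Their calls ended without any 1 of 8 libraries for Ccnb1 (WT cTreg replicates 2 and 3, KO cTreg replicates 2 and 3, the WT eTreg replicates and KO eTreg replicate 3; up to 0.132). Those of Mki67 ended without any 1 of 7 (the WT cTreg replicates, KO cTreg replicates 2 and 3, WT eTreg replicate 3 and KO eTreg replicate 3; up to 0.121). In eTreg none of the 13 was called by edgeR, DESeq2 or limma-voom, and 1 was at an unadjusted p under 0.05 in each of them.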

How the data were processed

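The authors deposited raw counts for 12 libraries, in rows named by gene symbol. Of these symbols, 2 stood on more than 1 row. Per the labels' protocols, RNeasy columns (Qiagen) gave the RNA, and KAPA HyperPrep chemistry with RiboErase, a step against ribosomal RNA, gave the libraries. HISAT2 2.2.1, Cell Ranger and the build mm10 are named, without their roles, per the submitters' processing notes. For the counter, its annotation and its use of strand, the answer is not given in the sources used here. Total counts were 14567313 to 19121577 per library.

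Groups follow the sample titles. In R 4.3.3, edgeR 4.0.16 kept genes by filterByExpr, scaled by TMM and fitted all 12 libraries with robust quasi-likelihood (12461 genes; threshold of 0.05). The edgeR steps alone were also run on simulated counts, in which some genes were changed in KO cTreg and the other groups did not differ. The other steps were not checked this way. The SE is the size of the log2 fold change over the square root of F. Log2 CPM use a prior count of 2. Exon lengths and coordinates are from GENCODE vM21 (mm10), matched by symbol for 11947 of the genes tested, and promoter windows from RefSeq. Alternatives were DESeq2 1.42.0 (size factors, Wald test), limma-voom (limma 3.58.1), other filters and scalings, a length and GC offset (splines, 5 degrees of freedom each), only 6 libraries, the replicate block and leaving out each library.

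The members and lists were chosen with earlier results of these data known. The text names all members, up to 2 called rises and 2 called falls of each list in each KO comparison, and 3 genes most like each member (mean log2 CPM of at least 3, without predicted genes, ribosomal and pseudogene copies and month-like names). Not every gene taken by this rule or by the marker lists is reported here. Marker lists for B, plasma, CD8 T, NK and erythroid cells summed to at most 15.3, 1.42, 12.3, 11.4 and 14.4 CPM in any library.

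Deviations from the group means in same-numbered libraries correlated in eTreg (r = 0.257, 0.341 and 0.166 for KO with WT), so these numbers may pair the libraries, a hint from the data and not from the labels; the other group pairs did not have all 3 above 0.1. No library pair was a duplicate (chi-squared per degree of freedom of 3.62 to 9.94).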

Additional observations from a re-analysis of the deposited data

Results flagged for a closer look

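Ccnd2 was singled out because its KO effect differed between the subsets by a test of the difference itself. The KO effect in eTreg minus that in cTreg was 0.33 ± 0.07 on the log2 scale (edgeR adjusted p = 0.0116), with log2 fold changes of -0.42 in eTreg and -0.75 in cTreg. All 3 KO libraries lay below all 3 WT libraries in each subset. Over the alternatives without a minimum fold the difference ran from 0.29 to 0.37, with adjusted p-values of 4.59e-05 to 0.0380. Its cause was not tested.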

How the results depend on the processing

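Of 1017 recomputed values of the members, 964 stayed on their side of the threshold, 34 no longer passed, 19 newly passed and 0 called values changed sign. Among the 964, 15 values that were not called changed sign, all of Socs1 in the interaction, Cish and Pim1 for eTreg against cTreg in KO, or Pim1 for KO against WT in eTreg. Requiring an absolute log2 fold change of at least 1 left, by construction, 2 members called for KO against WT in cTreg, 1 in eTreg, 4 for eTreg against cTreg in WT, 3 in KO and 0 for the interaction. Of all 12461 genes it left 742, 136, 2593, 2482 and 215, in the same order. For the interaction, where Ccnd2 was called, 3 members passed with the replicate block over 12 libraries (Cish at an adjusted p of 0.00526 and Socs3 at 0.0395 besides Ccnd2), 2 with the length and GC offset (Osm, 0.0329) and 2 in the DESeq2 Wald test (Cish, 0.0320). Over all genes the interaction calls rose as well, to 558 with that block, 621 with the offset and 624 by DESeq2, against 474. Leaving out each library gave 6 to 8 members called in cTreg (7 with all), 4 to 5 in eTreg (5 with all), 9 for eTreg against cTreg in WT, 6 to 8 in KO (7 with all) and 1 to 2 for the interaction. Over all genes it gave 2534 to 3490 calls in cTreg, 455 to 890 in eTreg and 314 to 570 for the interaction. For eTreg against cTreg it gave 8452 to 9013 in WT and 8442 to 9032 in KO. Ccnd2 lost its subset call in KO without KO eTreg replicate 3 (adjusted p = 0.0650), while Pim1 passed there in DESeq2 (0.0215), limma-voom (0.0350), with only the 6 libraries (0.0220) and without WT cTreg replicate 2, KO cTreg replicate 1 or WT eTreg replicate 2 (0.0176 to 0.0470). With the replicate block in the 6 eTreg libraries 1712 genes passed, against 771 in the same 6 libraries without it and 829 over all 12, and the block changed no member's eTreg call. In the 6 cTreg libraries, whose numbers do not pair by the check, Ccnd3 was not called with the replicate block (0.0896) or without it (0.0554), and the block gave a call to Pim1 (0.0228). Scaling by library size without Rn45s gave 301 genes higher and 545 lower in KO eTreg, against 405 and 424, and changed no member's call for KO against WT. Where a setting does not itself fix the shift, the cause was not tested. With 3 libraries per group, the SE of the members' KO effects was 0.05 to 0.15 on the log2 scale, which limits what could be detected.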
